A study of Mus musculus with 6 samples.

Results

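Doublecortin, encoded by Dcx, is a microtubule-associated protein of migrating neuroblasts, and 9 genes were examined here: Dcx, its relatives Dclk1 and Dclk2, the microtubule-associated proteins Map1b, Map2 and Mapt (tau), the tubulin-binding protein gene Stmn1, and the beta-tubulin genes Tubb3 and Tubb2b. They were taken by symbol from a table of 25302 genes, and all 9 were found, each in 1 row. The question was whether the loss of Dcx from Sox9-deficient bile duct cells is shared by related genes. Dcx was picked because its own read count fell in the comparison described here, so its values are a description and carry no test. The other 8 were picked by family, with earlier results of these data known.

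RNA was sequenced from biliary epithelial cells of mouse liver, the cells that line the bile ducts, in 3 Control and 3 Sox9cKO samples. Control mice had the genotype Sox9fl/fl, in which both alleles of the transcription factor gene Sox9 carry loxP sites. Sox9cKO mice had the genotype Sox9fl/fl:AlbCre+/-, which adds Cre recombinase under control of the albumin promoter, active in hepatocytes and in the embryonic liver cells from which hepatocytes and biliary cells arise. All 6 samples thus share the floxed alleles, and Control samples lack Cre. Age, sex, the way the cells were isolated and whether animals were pooled are not given in the sources used here. Without word that the samples came from separate animals, the p-values measure the spread between these samples, part of which may be technical.

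Total RNA went into stranded libraries that carry molecular identifiers, after removal of ribosomal RNA. They held 11883496 to 16191990 reads assigned to genes. Values are normalized read counts, each being the reads over a factor that corrects for library size. For Sox9 the 3 Control samples stood at 6211, 6043 and 6293 and the 3 Sox9cKO samples at 3363, 3165 and 3340, so its direction followed the labels while 53.2% of the transcript remained. Markers of the labelled cell type were abundant: the biliary genes Krt19 and Epcam had means of 12049 ± 493 and 7302 ± 655 in Control and 18869 ± 7123 and 6635 ± 1435 in Sox9cKO (SD, n = 3). Of the 12 biliary genes tested, 9 had a log2 fold change below 0 (median -0.11, against 0.036 over all genes tested). In limma Sox9 was called lower, Krt7 was called higher (adjusted p = 0.0408) and the other 10 were not called. Krt7 had means of 1948 ± 196 in Control and 3958 ± 1018 in Sox9cKO (SD, n = 3). It missed the threshold in 6 of the 18 alternative analyses described below. Endothelial transcripts varied widely and moved with the groups. The sum over 10 endothelial genes came to 10312, 32131 and 1461 for the Control samples and 25205, 32722 and 5323 for the Sox9cKO samples (in the order of replicates 1 to 3), higher in Sox9cKO within each number. All 10 genes had a log2 fold change above 0 (0.63 to 1.52, median 1.04, against 0.036 over all genes tested), and 0 were called by limma (1, Vwf, at an unadjusted p under 0.05). Once the replicate number was added to the fit as a block, Vwf was called (limma, adjusted p = 0.0420), as were 8.05% of all genes tested. Xist, transcribed from the inactive X chromosome of female cells, was at 31917 and 32279 in Control replicates 1 and 3 and at 27852 in Sox9cKO replicate 1, and at 10.2 or less in the other 3 samples. Eif2s3y, a gene of the Y chromosome, was at 0 in the 3 samples with high Xist. It was at 521 in Control replicate 2 and at 610 and 708 in Sox9cKO replicates 2 and 3. Control replicates 1 and 3 and Sox9cKO replicate 1 thus had the pattern of female cells, and the other 3 samples that of male cells. The genotype labels do not give this difference, and the groups are not balanced for it.

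Microtubules are hollow polymers of alpha- and beta-tubulin that carry transport, shape the cell and build the mitotic spindle and the cilium. Structural microtubule-associated proteins bind along the lattice and stabilise it. Doublecortin binds between protofilaments through a pair of doublecortin domains, and is best known from the developing cortex, where its loss disturbs neuronal migration. In epithelia such as the bile duct, microtubules run along the apical-basal axis, and each cholangiocyte carries a primary cilium built on them.

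The sequences before the transcription start sites are shown for Dcx and for 2 genes that the results below turn on, Capn6, the gene next to Dcx, and Map1b, because the gene deleted in these mice encodes a DNA-binding factor. They come from the RefSeq annotation of GRCm38.p6, which is not the build GRCm39 named in the submitters' processing notes. Each run gives the 250 bases before a start, 5′ to 3′ on the gene's own strand, with capitals marking a match to ACAAAG, a core recognised by SOX and TCF factors.
Dcx, upstream start, chrX:143933220-143933469, minus strand: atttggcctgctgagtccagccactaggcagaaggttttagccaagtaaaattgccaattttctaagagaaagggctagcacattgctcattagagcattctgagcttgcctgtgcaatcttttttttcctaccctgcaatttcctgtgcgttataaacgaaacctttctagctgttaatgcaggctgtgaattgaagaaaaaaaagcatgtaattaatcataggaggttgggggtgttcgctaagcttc
Dcx, downstream start, chrX:143933125-143933374, minus strand: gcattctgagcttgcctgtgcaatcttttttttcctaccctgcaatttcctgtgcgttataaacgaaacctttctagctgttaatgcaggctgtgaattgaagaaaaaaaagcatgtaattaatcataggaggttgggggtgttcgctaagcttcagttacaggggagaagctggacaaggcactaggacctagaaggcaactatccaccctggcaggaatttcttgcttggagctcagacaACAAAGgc
Capn6, chrX:143827413-143827662, minus strand: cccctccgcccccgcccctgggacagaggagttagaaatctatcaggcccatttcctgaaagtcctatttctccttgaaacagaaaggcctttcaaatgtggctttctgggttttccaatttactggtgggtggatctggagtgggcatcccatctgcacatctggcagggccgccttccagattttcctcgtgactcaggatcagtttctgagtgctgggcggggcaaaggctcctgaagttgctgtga
Map1b, chr13:99516603-99516852, minus strand: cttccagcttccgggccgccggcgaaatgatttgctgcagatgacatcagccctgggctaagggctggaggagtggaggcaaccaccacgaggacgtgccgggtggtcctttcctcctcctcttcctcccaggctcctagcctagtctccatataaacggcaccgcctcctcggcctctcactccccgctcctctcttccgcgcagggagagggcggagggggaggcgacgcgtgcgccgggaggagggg
AACAAT, a closer SOX core, and ACAAAG were each searched on both strands. Of the 9 genes, 6 had an entry, with 8 windows in all, since Dcx and Dclk1 have 2 each, and 2 of the 8 windows held a match. The window of the downstream start of Dcx held 1 ACAAAG, which ended 2 bases before that start, and the window of its upstream start held none. Dclk2 had 1 ACAAAG on the opposite strand. Over 32851 promoter windows of the same length, 24.04% held at least 1 match to either motif (9.42% for AACAAT and 16.5% for ACAAAG), and neither Capn6 nor Map1b did. These matches are letters in a window and show no binding. The shown windows differ in base composition: 41.6% and 44.8% of the bases were G or C before the upstream and downstream starts of Dcx, with 3 CpG dinucleotides each, against 66.4% and 19 before Map1b and medians of 52.4% and 6 over all windows.

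Normalized reads of Dcx numbered 588, 346 and 336 in the Control samples and 13.9, 1.89 and 3.40 in the Sox9cKO samples, here and below in the order of replicates 1 to 3. The groups lay far apart, with the lowest Control sample above the highest Sox9cKO sample, replicate 1. In reads this was 699, 373 and 292 against 14, 2 and 3, so the Sox9cKO level rests on few molecules and its own spread is poorly known. The means were 423 ± 142 and 6.40 ± 6.56 (SD, n = 3), a 66.1-fold difference, and the log2 fold change (Sox9cKO minus Control, on log2 of the count plus 1) was -6.16 with a standard error of 0.60. Without Sox9cKO replicate 1 it was -6.85. In bulk RNA, fewer cells that express a gene and less RNA per cell cannot be told apart. Dcx lies on the X chromosome, and the order held on either side of Xist: among the 3 samples with high Xist the Control values were 588 and 336 against 13.9, and among the other 3 the Control value was 346 against 1.89 and 3.40.

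**Figure D1:**
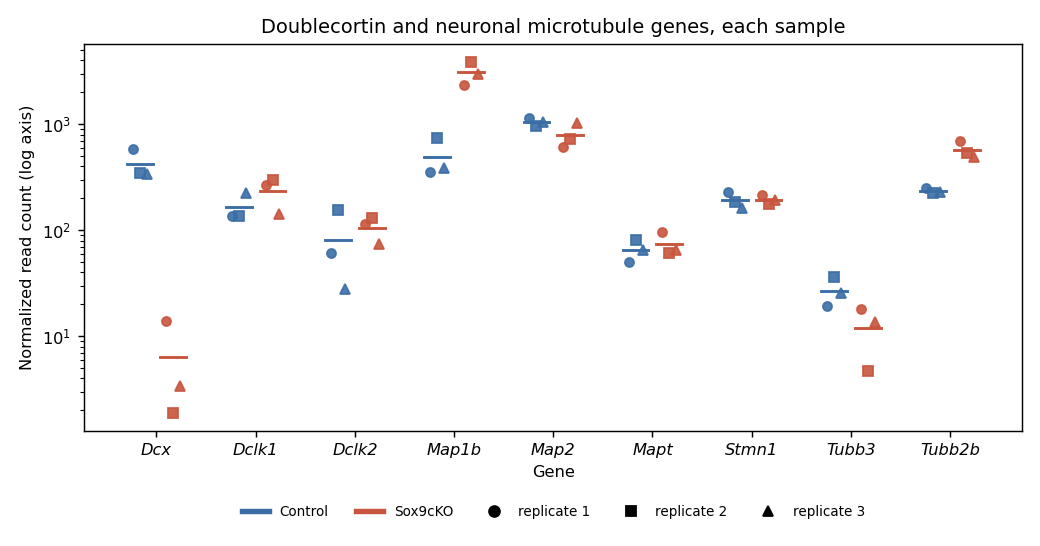
Normalized read counts (log axis) of the 9 genes, with Control in blue, Sox9cKO in red, a symbol for each replicate and a line at the mean of 3. Dcx falls from 336 to 588 in Control to at most 13.9 in Sox9cKO, Map1b and Tubb2b lie higher in every Sox9cKO sample, and the groups of Dclk1, Dclk2, Map2, Mapt and Stmn1 overlap.

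No fall of the size of that of Dcx was seen among its 8 relatives, none of whose 95% intervals reached below -2.44 on the log2 scale. With limma and Benjamini-Hochberg adjustment over all 17153 genes tested, 2 of the 8 passed the threshold of 0.05, Map1b and Tubb2b, and both were higher in Sox9cKO. None of the 8 was called lower. Over all genes tested, 2.97% were called, 2.03% higher and 0.939% lower. The median log2 fold change of the 8 was 0.33, against 0.036 over all genes tested, and 6 of the 8 were above 0. Because the list was chosen with results known, these shares describe it and carry no test.

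Dclk1 and Dclk2 encode doublecortin-like kinases, which join doublecortin domains to a protein kinase domain. Dclk1 had 135, 136 and 225 normalized reads in Control and 270, 299 and 143 in Sox9cKO. Sox9cKO replicates 1 and 2 were above every Control sample, and replicate 3 lay among them. The log2 fold change was 0.49 (95% interval -0.29 to 1.27; limma, adjusted p = 0.508), an interval that holds no fall larger than 0.29. Dclk2 had 61.4, 154 and 27.7 in Control against 114, 129 and 73.6 in Sox9cKO. Control values were the more scattered and enclosed all Sox9cKO values, and the log2 fold change of 0.67 had an interval of -0.69 to 2.03 (limma, adjusted p = 0.610). Within each group the Dclk2 values had the same order as the endothelial sums given above, highest in replicate 2 and lowest in replicate 3, and the part of endothelial cells in them was not tested. Dclk1 is also a marker of tuft cells, the chemosensory cells of epithelia: 0 of 4 tested tuft cell genes were called by limma (0 at an unadjusted p under 0.05), and 3 of the 4 had a log2 fold change above 0. The channel gene Trpm5 had 27.7, 26.0 and 34.6 against 76.6, 40.6 and 26.0, with Sox9cKO replicates 1 and 2 high and replicate 3 not, as for Dclk1 (log2 fold change 0.55; limma, adjusted p = 0.543). The tuft cell factor Pou2f3 had 11.8, 25.1 and 40.3 against 23.9, 23.6 and 21.5 (0.0014; limma, adjusted p = 0.999). The part of tuft cells in the Dclk1 values was not tested.

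Map1b, which encodes a large microtubule-associated protein of growing axons, showed the largest rise of the 9. It had 353, 742 and 387 normalized reads in Control and 2369, 3908 and 3012 in Sox9cKO. Every Sox9cKO sample had more than 3 times the highest Control value. The mean rose 6.27-fold, from 494 ± 215 to 3096 ± 773 (SD, n = 3), with a log2 fold change of 2.70 and a standard error of 0.31 (adjusted p = 0.0065 in limma). It stayed called in each of the 18 alternative analyses, with log2 fold changes from 2.44 to 3.03.

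Map2 and Mapt encode the related dendritic and axonal lattice-binding proteins. Map2 was the most counted of the 9 in Control, with 1135, 972 and 1052 normalized reads, against 612, 719 and 1030 in Sox9cKO. Sox9cKO replicates 1 and 2 were below all Control samples, and replicate 3 was not. The log2 fold change was -0.45 (95% interval -0.92 to 0.014; limma, adjusted p = 0.297). Mapt was low in both groups, at 50.4, 81.7 and 64.5 in Control and 95.5, 60.5 and 65.7 in Sox9cKO, with overlapping values and a log2 fold change of 0.17 (95% interval -0.48 to 0.82; limma, adjusted p = 0.809).

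Stmn1 encodes stathmin, which sequesters tubulin dimers and is abundant in dividing cells. Its normalized counts were 230, 186 and 164 in Control and 215, 176 and 194 in Sox9cKO. The groups coincided, with means of 193 ± 34.0 and 195 ± 19.6 (SD, n = 3) and a log2 fold change of 0.021 (95% interval -0.41 to 0.45; limma, adjusted p = 0.970). Of 12 tested genes of cycling cells, 0 were called by limma, and their summed counts overlapped, from 1649 to 3883 in Control and from 1704 to 3087 in Sox9cKO. The smallest p among them was that of Birc5, a mitotic survivin gene, at -0.92 on the log2 scale (limma, adjusted p = 0.133), and it was the 1 gene of the list with an unadjusted p under 0.05.

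The log2 fold changes of the beta-tubulin genes had opposite signs, and only that of Tubb2b was called by limma. Tubb2b had 250, 224 and 228 normalized reads in Control and 703, 538 and 487 in Sox9cKO. Control samples were close together, and each Sox9cKO sample was well above them. The mean rose 2.46-fold, from 234 ± 14.4 to 576 ± 113 (SD, n = 3), with a log2 fold change of 1.28 and a standard error of 0.17 (adjusted p = 0.0105 in limma). Leaving out Control replicate 3 gave 1.26 and an adjusted p of 0.0515 in limma. Tubb2b shares long stretches of coding sequence with Tubb2a and other beta-tubulin genes, and how reads were divided among them is not given in the sources used here. The log2 fold change of Tubb2a was 0.27 (limma, adjusted p = 0.762).

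Tubb3, the beta-tubulin used as a neuronal marker, had 19.3, 36.2 and 25.3 normalized reads in Control and 17.9, 4.73 and 13.6 in Sox9cKO. The groups did not overlap, though Control replicate 1 and Sox9cKO replicate 1 were nearly equal. Non-overlap held for 3 of the 8 relatives (Map1b, Tubb2b and Tubb3) and for 24.2% of all genes tested. The log2 fold change of Tubb3 was -1.22 (95% interval -2.44 to 0.0010; limma, adjusted p = 0.281), at a depth of 5 to 39 reads per library.

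**Figure D2:**
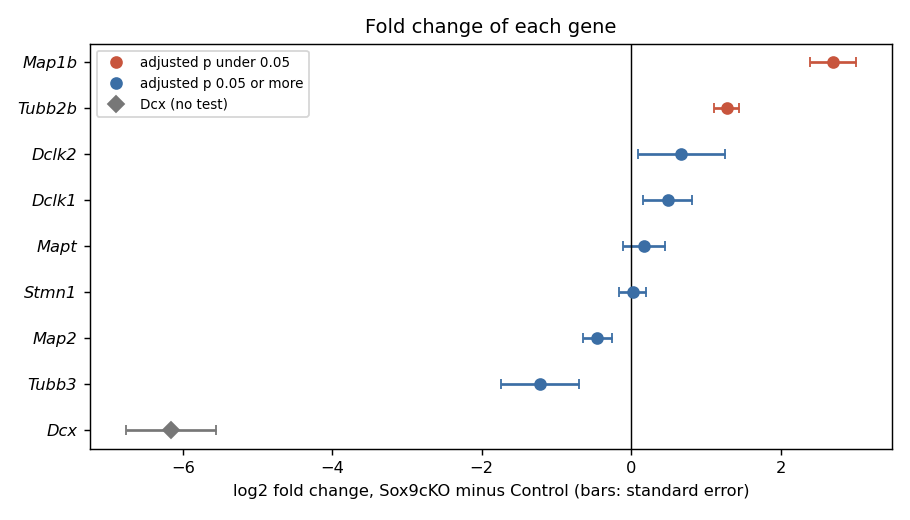
Log2 fold change (Sox9cKO minus Control) of the 9 genes with standard errors from limma, with genes at an adjusted p under 0.05 in red and Dcx, which was not tested, as a grey diamond. Dcx stands at -6.16, Map1b at 2.70 and Tubb2b at 1.28, and the other 6 lie between -1.22 and 0.67.

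Levels of different genes were compared per length, as normalized reads per kilobase of the merged exons in GENCODE M21. In Control, Tubb2b (102 per kilobase) and Stmn1 (101) stood highest and their sample ranges overlapped. Map2 followed at 64.0, then Dcx at 33.5 and Map1b at 31.2, whose ranges overlapped, and then Tubb3 (14.4), Dclk1 (10.8), Mapt (8.70) and Dclk2 (7.68), in which each neighbouring pair overlapped. Dcx was thus at the level of Map1b and above Dclk1 and Dclk2 in Control bile duct cells. It was not above Dclk3, a doublecortin-like kinase gene outside the 9, which had 52.7 ± 21.2 per kilobase in Control (SD, n = 3). In Sox9cKO the order began with Tubb2b (251) and Map1b (195), which overlapped, then Stmn1 (101), Map2 (47.9), Dclk1 (15.5), Dclk2 (10.03), Mapt (9.81) and Tubb3 (6.46), and ended with Dcx at 0.506, whose highest sample (1.10) was below the lowest of Tubb3 (2.53). The pair of Map1b and Dcx, level with each other in Control, ended near opposite ends of the order.

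**Figure D3:**
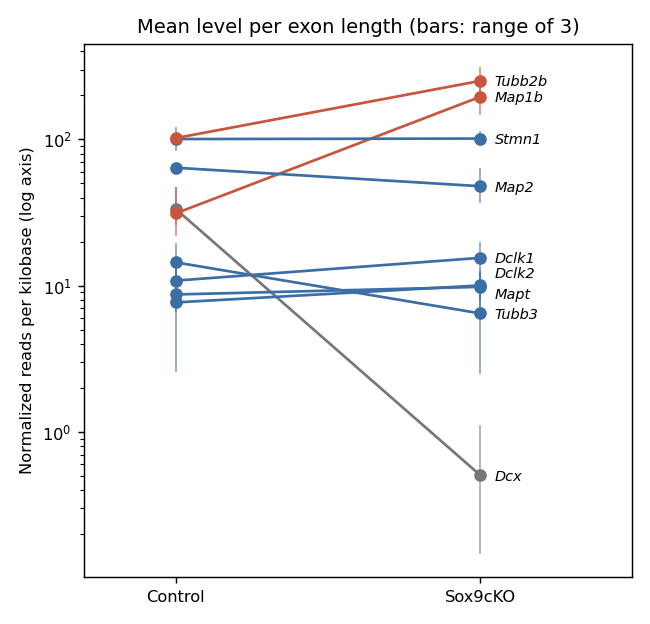
Mean normalized reads per kilobase of merged exon length (log axis) of the 9 genes in Control and Sox9cKO, with vertical bars spanning the 3 samples. Lines for Dcx (33.5 to 0.506) and Map1b (31.2 to 195) part from nearly the same Control level, while Stmn1 stays at 101.

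The wider doublecortin family was examined from a list of 7 further genes that encode doublecortin domains, of which 5 were analysed and 4 tested. The fifth, Rp1, was below the filter, at 13.9 or less in every sample. All 4 had a negative log2 fold change (median -1.03, against 0.036 over all genes tested). Of the 4, 1 was called lower, Dcdc2a, where 0.939% of all genes tested were called lower. Its product is a ciliary protein, and mutations of its human counterpart cause a neonatal sclerosing cholangitis. Dcdc2a was the most abundant doublecortin-domain gene in these cells, with 4649, 3851 and 4587 normalized reads in Control and 819, 1528 and 1519 in Sox9cKO. The highest Sox9cKO value was far below the lowest Control value. The mean fell from 4362 ± 444 to 1289 ± 407 (SD, n = 3), with a log2 fold change of -1.81 and a standard error of 0.25 (adjusted p = 0.0122 in limma). Leaving out Control replicate 1 gave -1.76 with an adjusted p of 0.0709, and leaving out Control replicate 3 gave -1.77 with 0.0575, both in limma.

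Dclk3, the third doublecortin-like kinase gene, had 221, 93.7 and 160 normalized reads in Control and 77.6, 39.7 and 83.8 in Sox9cKO. The groups did not overlap, as for 24.2% of all genes tested. The log2 fold change of -1.21 had an adjusted p of 0.174 with limma. It was called (0.0164) once the replicate number was added to the fit as a block, where 8.05% of all genes tested were called. Dcdc2b had 36.1, 65.9 and 30.0 in Control against 21.9, 29.3 and 18.1 in Sox9cKO, also without overlap (log2 fold change -0.85; limma, adjusted p = 0.299). Rp1l1, a retinal member, was low and overlapping (-0.43; limma, adjusted p = 0.815). Side by side, the log2 fold changes of the doublecortin-domain genes were -6.16 for Dcx, -1.81 for Dcdc2a, -1.21 for Dclk3, -0.85 for Dcdc2b, -0.43 for Rp1l1, 0.49 for Dclk1 and 0.67 for Dclk2. Whether these differ from each other was not tested.

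Across 8 lists of further microtubule genes, which include the doublecortin-domain list, 85 genes were tested and 5 were called by limma (5.88%, against 2.97% of all genes tested), 3 higher and 2 lower. The median log2 fold change over these lists was 0.019, and 69 of the 85 lay within 0.5 of 0. Besides Dcdc2a, the called genes were Kif1a, Mark1, Mapre2 and Fign. With the replicate block in limma 9 of the 85 were called, in a fit that called 8.05% of all genes tested. The further ones were Dclk3, Tubb5 (limma with the block, adjusted p = 0.0216), Kif5a (0.0437) and Mapre3 (0.0463). Counts fell when a library was left out: 0 of the 85 were called without Control replicate 1, 2 without Control replicate 2, and 1 without each of the others. With all 6 samples, 17 of the 85 had an unadjusted p under 0.05 in limma. The share of all genes at that unadjusted threshold is not given here, so the 17 cannot be read as an excess.

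Structural proteins other than the 9 showed no called gene. Among 7 tested lattice-binding genes (median log2 fold change 0.019), Map4, the main structural protein of non-neuronal cells, had means of 3992 ± 216 and 4049 ± 291 (SD, n = 3), with a log2 fold change of 0.019 (95% interval -0.23 to 0.27). Map7d1 had 0.11 and Map7 -0.14, and 7 of 7 had adjusted p-values of at least 0.563 with limma. Of 13 tested tubulin genes 0 were called by limma, and the smallest p was that of Tube1, encoding epsilon-tubulin of the centriole (log2 fold change -0.86; limma, adjusted p = 0.180). Tubb4b and Tubb6, which stood highest per kilobase in both groups, had log2 fold changes of 0.092 and -0.16, with 95% intervals of -0.37 to 0.55 and -0.47 to 0.15. Tubb5 had 1480, 1595 and 1013 normalized reads in Control against 2679, 2255 and 1477 in Sox9cKO, which overlap (log2 fold change 0.63; limma, adjusted p = 0.262). The stathmin genes Stmn3 and Stmn4 were at or below 18.6 in every sample and were not tested.

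Motors and regulators of the lattice held the other called genes. Kif1a, a kinesin that carries synaptic vesicle precursors and moves on doublecortin-decorated microtubules, had 356, 426 and 262 normalized reads in Control and 626, 800 and 693 in Sox9cKO. All Sox9cKO values exceeded all Control values, with a log2 fold change of 1.04 (SE 0.20; limma, adjusted p = 0.0436). Mark1, a kinase that phosphorylates tau and other lattice-binding proteins, rose from 26.1 ± 7.52 to 111 ± 43.9 (SD, n = 3; log2 fold change 2.02; limma, adjusted p = 0.0321). Mapre2, a plus-end binding protein gene, rose from 328 ± 26.9 to 554 ± 59.8 (0.75; limma, adjusted p = 0.0374), and Fign, whose product severs microtubules, fell from 120 ± 34.2 to 45.0 ± 4.54 (-1.36; limma, adjusted p = 0.0471). All 4 kept their sign in each of the 6 fits that left out 1 sample, but Mark1 and Mapre2 were called in none of these (adjusted p from 0.0543 to 0.154 in limma), Kif1a only without Control replicate 2 (0.0323; otherwise 0.0805 to 0.153) and Fign only without Control replicate 3 (0.0411; otherwise 0.0928 to 0.192). For Pafah1b1, which encodes the dynein regulator Lis1, the log2 fold change was -0.25 (95% interval -0.56 to 0.058; limma, adjusted p = 0.379).

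**Figure D4:**
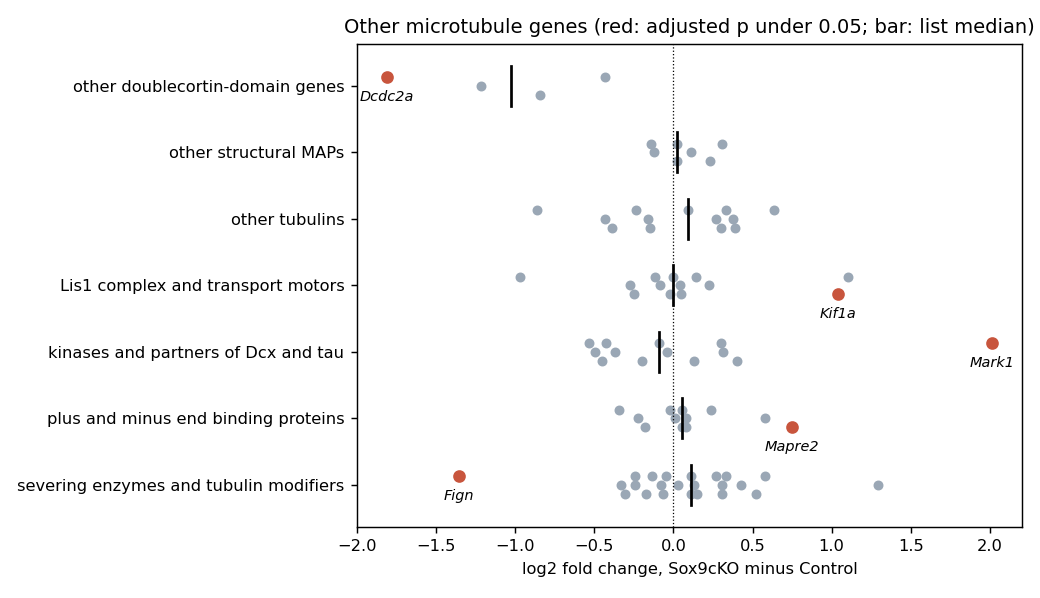
Log2 fold change (Sox9cKO minus Control) of the 85 tested genes in 7 lists of further microtubule genes (none of the stathmin list was tested), with called genes in red and a bar at each list's median. Most points lie within 0.5 of 0, and the doublecortin-domain genes all lie to the left of 0.

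The genes whose pattern was most like that of Dcx were found by the Pearson correlation of the log2 values over the 6 samples. Because Dcx separates the groups so widely, this measure mostly picks genes with the same group difference, and it is a description. Capn6 came first (r = 0.998), followed by Fgfr4, Dscam, Tesc and Ttyh1 (r from 0.996 to 0.998). Capn6 encodes a calpain without the catalytic cysteine that binds and stabilises microtubules. It had 175, 140 and 119 normalized reads in Control and 12.9, 2.84 and 5.66 in Sox9cKO, a 20.2-fold lower mean, and as with Dcx the highest Sox9cKO value was that of replicate 1. Fgfr4, an FGF receptor gene, had means of 1029 ± 192 and 232 ± 69.0 in Control and Sox9cKO (SD, n = 3), and Dscam, a neuronal adhesion molecule gene, of 80.9 ± 19.7 and 7.41 ± 5.66. The means were 137 ± 15.3 and 12.6 ± 4.83 for Tesc, and 65.1 ± 15.0 and 5.71 ± 3.68 for Ttyh1. Among the 8 relatives the same measure ran from -0.97 for Map1b and -0.89 for Tubb2b to 0.80 for Tubb3.

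Capn6 is also the protein-coding gene next to Dcx on the X chromosome, on the same strand and beyond the 3′ end of Dcx, in RefSeq GRCm38.p6. The 4 protein-coding genes on either side were therefore examined, a choice made after these values were seen, and 7 of these 8 were analysed. Beyond Capn6 lies Pak3, a kinase gene, with 111, 133 and 179 normalized reads in Control and 229, 490 and 360 in Sox9cKO. Each Sox9cKO value was above each Control value, opposite to Dcx and Capn6, with a log2 fold change of 1.31 (adjusted p = 0.0786 in limma, and 0.0148 when blocked by replicate). Alg13, a glycosyltransferase subunit gene on the other side, had 133, 128 and 119 against 81.6, 139 and 103, with overlapping groups (log2 fold change -0.26; limma, adjusted p = 0.616). Chrdl1, a BMP antagonist gene, overlapped as well (-0.69; limma, adjusted p = 0.580), and Rtl9, A730046J19Rik and Trpc5 had at most 5.97 normalized reads in any sample.

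**Figure D5:**
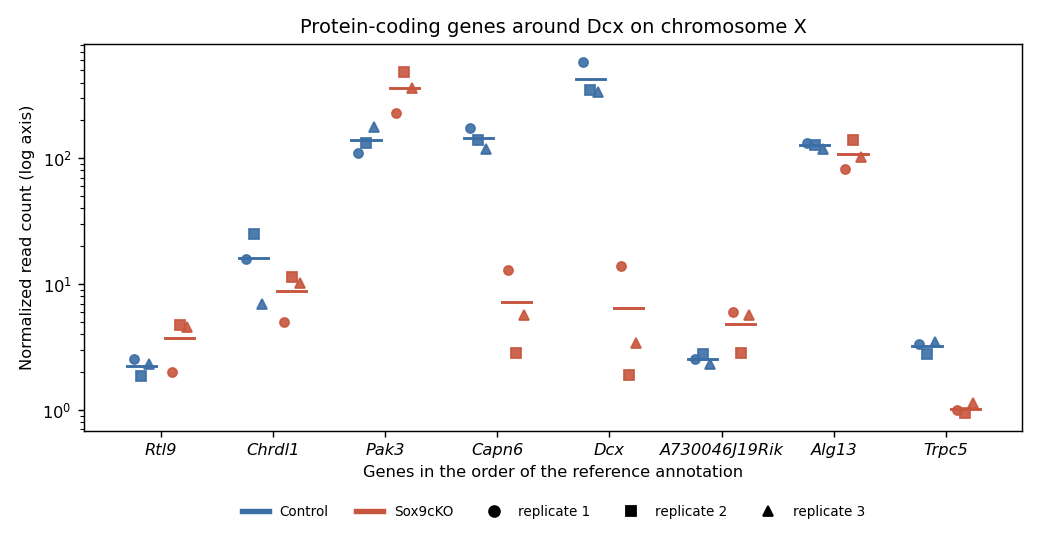
Normalized read counts (log axis) of Dcx and the protein-coding genes around it on the X chromosome, in the order of the reference annotation, with Control in blue, Sox9cKO in red and a symbol for each replicate. Dcx and Capn6 are lower in every Sox9cKO sample, Pak3 is higher in every Sox9cKO sample, and Alg13 and Chrdl1 overlap between groups.

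Because Dcx, Map2, Tubb3 and Map1b are best known from neurons, genes of nerve cells were read beside them. Of 21 listed neuronal and neuroblast genes 12 were analysed, and 7 could be tested. The summed counts were 561 to 668 in Control and 2032 to 3635 in Sox9cKO, and 1 gene, Ncam1, accounted for most of this. Ncam1, an adhesion molecule of neuroblasts that also appears on reactive bile ductules, had 133, 147 and 158 normalized reads in Control and 1478, 2898 and 2924 in Sox9cKO. It rose 16.7-fold, with a log2 fold change of 3.99 and a standard error of 0.27 (limma, adjusted p = 0.00134). The 11 other genes summed to 428 to 510 in Control and 513 to 711 in Sox9cKO.

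Of the 6 other tested genes none was called by limma. An unadjusted p under 0.05 was found for 5, with no share over all genes at that threshold to set beside it. Higher values in Sox9cKO were measured for Syt1, a synaptic vesicle protein gene (192, 182 and 266 against 313, 318 and 490), and lower ones for Prph, a peripheral neurofilament gene (50.4, 69.6 and 62.2 against 18.9, 37.8 and 45.3). The members of the list thus differed in direction.

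Rbfox3 (NeuN), which marks mature neurons, was near the limit of detection, with 5.76 to 6.497 normalized reads in Control and 1.13 to 14.9 in Sox9cKO, and Elavl3 had 84.9, 118 and 93.3 against 19.9, 35.0 and 65.7 (log2 fold change -1.42; adjusted p = 0.137 in limma, and 0.0498 when blocked by replicate). Because every analysed gene had at least 10 reads in total, no gene of the list could be at 0 in all 6 samples. Of 5 tested genes of Schwann cells, the glia of peripheral nerves, 0 were called by limma, and the list summed to 3162 to 3477 in Control and 2428 to 3307 in Sox9cKO, most of it from Erbb3 and Mbp, which epithelial cells also express. The 5 analysed neuroendocrine genes summed to at most 45.4. Of 11 tested mesenchymal genes 0 were called by limma, and their sums overlapped (2267 to 3010 and 2484 to 5347). Of 8 tested leukocyte and erythroid genes, 7 had a log2 fold change below 0, with a median over the 8 of -0.58 and a lowest value of -1.95 for Ptprc (CD45), and none of these 7 was called by limma (3 at an unadjusted p under 0.05). The macrophage gene Csf1r alone was above 0 and was called higher (log2 fold change 0.92; limma, adjusted p = 0.0142). Because Csf1r holds most of the reads of the list, its sums were higher in Sox9cKO (1066 to 1157 and 1530 to 1834). The sums of 12 hepatocyte genes overlapped (18954 to 30135 and 23279 to 37455). Of these 12, 9 had a log2 fold change above 0 and 3 below (median 0.36, against 0.036 over all genes tested). By limma 2 were called higher, as were 2.03% of all genes tested. They were Serpina1a (means of 18.8 in Control and 341 in Sox9cKO) and Tat (91.9 and 437). The part of these cells in the levels of the 9 genes was not tested. For Map1b the highest sample of each group, replicate 2, was also the one with the highest endothelial sum, while the lowest, replicate 1, was not the one with the lowest sum.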

How the data were processed

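The deposited values are a signal that the authors derived from gene counts, scaled by 1 size factor per sample. The submitters' processing notes name the build GRCm39 and DESeq2 1.36.0. The aligner, the counter, the annotation, strand use and the treatment of the molecular identifiers are not given in the sources used here. Each column divided by its smallest value above 0 yielded whole reads throughout (100% of values, tolerance 0.001 reads). The lowest total of a gene was 10 reads, and rarer genes were not analysed here.

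The test was limma 3.58.1 in R 4.3.3 on log2(value + 1), with an intensity trend, for genes whose normalized reads averaged 10 or more, 2-sided, with Benjamini-Hochberg adjustment over all genes and a threshold of 0.05. The pseudocount understates the change of low genes. Intervals come from the moderated standard errors of limma. Same-numbered samples deviated together (their correlations over genes were 0.207, 0.472 and 0.542), so a fit with the replicate number of the titles as a block was also made. Other settings changed the pseudocount (0.1 or 5), the filter (none, or a mean of 50), the scaling (quantile, or TMM) or the trend (none), used edgeR 4.0.16 or DESeq2 1.42.0 on the recovered reads, or left out 1 sample. Xist as a covariate was added after the data were seen. Scripts were tested on simulated data.

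The members and lists were chosen with earlier results of these data known. Named genes were the 9, Sox9, up to 3 called genes in each list or else the one with the smallest p, the 5 most correlated with Dcx, and the most abundant of some lists, though not all that this rule takes are reported. Neighbours of Dcx and Tubb2a, Pou2f3, Ptprc, Pafah1b1, Rbfox3, Elavl3, Syt1, Prph, Rp1, Krt19, Epcam and Mbp were named outside it, after their values were seen.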

Additional observations from a re-analysis of the deposited data

How the results depend on the processing

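Dcx kept its direction under all 18 alternatives, with log2 fold changes from -6.85 to -5.33, and Sox9 was called in all 18 (-0.9997 to -0.88). The relatives of Dcx that were called numbered 2 in each alternative, apart from 1 without Control replicate 3 (1 to 2 over the fits without 1 sample). The number of further microtubule genes called was 5 with all samples, 3 with quantile normalization, 2 without the intensity trend, 1 with Xist as a covariate, 9 with the replicate block in limma and 9 with edgeR and the replicate block, and 0 to 2 over the fits without 1 sample. Over all genes 510 were called, 1214 with DESeq2, 1381 with the replicate block in limma, 1160 with edgeR and the replicate block, and 199 to 387 over the fits without 1 sample. For these counts the cause was not tested. Fits without 1 sample hold fewer samples and also lack that particular sample, and the parts of these in the lower counts cannot be told apart. The block changed no call of the 8 relatives. Stmn1 had no stable sign: its log2 fold change was -0.10 with quantile normalization, -0.033 with edgeR, -0.030 with DESeq2, -0.027 with edgeR and the replicate block, and -0.091 to 0.15 over the fits without 1 sample, and Mapt ranged from -0.029 to 0.34 over these fits. Over all genes the median log2 fold change was 0.036, or -0.031 with quantile normalization, and 68.4% of the called genes were higher, against 60.6% with quantile normalization. Depth limits Dcx in Sox9cKO (2 to 14 reads) and Tubb3 (5 to 39 reads), where counting error alone is large.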
